A study of Mus musculus with 90 samples.

Results

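YUMM2.1 cells kept in interferon gamma (IFNγ) for 1 week were compared with YUMM2.1 cells kept for the same week without it. The comparison holds 6 of the 90 samples of the series, 3 treated and 3 control, chosen by the line, duration, treatment and hour in their labels. YUMM2.1 is a mouse melanoma line, and the series followed it and the colon carcinoma line CT26 through up to 3 weeks of IFNγ. Treated cells were cultured with 50 IU/mL IFN-γ and were collected at 1 week and 0 hour, which means that no fresh IFNγ was added before collection. Control cells received bovine serum albumin (BSA, 0 IU/mL) for 1 week and were also collected at 0 hour. All 6 cultures grew in RPMI-1640 with serum and antibiotics and were seeded in 6-well dishes 48 hours before harvest. RNA came from triplicate experiments on 1 line, and the labels do not say how separately the 3 cultures of a group were kept through the week. The p-values therefore measure only the spread between samples of a group, estimated over all 45 YUMM2.1 samples in 15 groups.

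IFNγ binds a receptor of IFNGR1 and IFNGR2 chains and acts through the kinases JAK1 and JAK2 on transcription factors of the STAT family. STAT dimers bind GAS elements in promoters and switch on a first set of genes, among them the transcription factor IRF1, and IRF and STAT complexes then act on ISRE elements in further genes. In tumour cells this pathway is known for raising antigen presentation on major histocompatibility complex (MHC) molecules, intracellular defence GTPases, antiviral proteins and checkpoint ligands. The comparison asks which of these programmes stood above the control after a week in the cytokine, without rechallenge.

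Expression was measured by 3′ digital gene expression, which reads the 3′ ends of transcripts and yields 1 count per gene and sample. Total counts were between 2309928 and 3161276 in the 3 controls. They were 1965197, 1882436 and 484092 in IFNγ samples 1, 2 and 3, so IFNγ sample 3 was the shallowest and detected 11694 genes, against 14804 to 16257 in the other 5. Mitochondrial genes took 5.13% to 5.49% of the counts in controls and 5.77% to 6.37% in treated samples. The label of a melanoma line was checked against 8 melanocyte lineage genes, whose summed level was 48.5 to 54.5 CPM (counts scaled to a common library total) in controls and 43.3 to 55.4 CPM in treated samples. Sox10 and Pax3, transcription factors of the neural crest lineage, gave nearly all of it, and the pigment genes Tyrp1 and Mlana had 0 counts in all 6. Mitf, a melanocyte transcription factor, had 3, 9 and 7 counts in controls and 1, 1 and 0 in the shallower treated samples. Dct went the other way, with 1, 0 and 0 control counts and 1, 4 and 0 treated counts. Both were too low to be tested. Of 9 leukocyte markers 5 had 0 counts in all 6 samples, among them Ptprc, which encodes the pan-leukocyte antigen CD45, and their sum was 3.72 to 9.66 CPM in controls and 2.13 to 6.10 CPM in treated samples. Of 7 epithelial markers 6 had 0 counts in all 6 samples.

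IFNγ for 1 week raised a compact set of genes and lowered few. Of 9589 genes with enough counts to be tested, 63 were higher (0.657% of the genes tested) and 7 were lower (0.073%) at an adjusted p below 0.05 (quasi-likelihood F test in edgeR, adjusted by Benjamini-Hochberg). An unadjusted p below 0.05 was reached by 570 genes, and the median log2 fold change of all genes tested was 0.0045. Without IFNγ sample 3 the counts were 61 higher and 10 lower. Of the 70 genes 64 were called again, 61 of the 63 higher but 3 of the 7 lower. The 3 treated samples all lay above the 3 controls in 58 of the 63 raised genes, an arrangement found in 6.01% of all genes tested. In the 7 lowered genes all 3 treated samples lay below the controls, as did 8.9% of all genes. The raised genes had a median log2 fold change of 3.24, or 3.05 when the 5 genes with 0 control counts were set at the bound that a floor of 3 counts gives. A log2 fold change of at least 1 was reached by 60 of them and of at least 4 by 22. Summed over the 63 genes, the level was 2321 to 2376 CPM in controls and 6852 to 7993 CPM in treated samples.

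**Figure D1:**
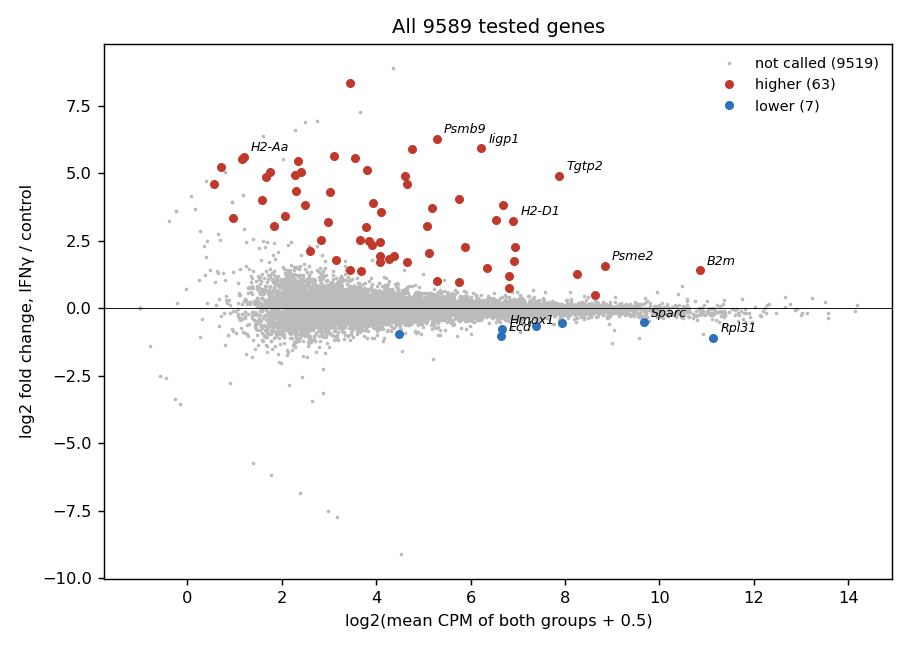
Log2 fold change (1 week IFNγ over 1-week control) against the log2 mean CPM of both groups plus 0.5, one point per gene for 9589 genes tested, with the 63 higher genes in red and the 7 lower genes in blue. The higher genes spread up to a log2 fold change of 8.32 and cover low and high levels, whereas the lower genes lie between -1.09 and -0.53.

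Among the signalling genes, an interferon regulatory factor was raised. Irf1, an early target that carries the signal to later genes, measured 11.0, 11.1 and 12.5 CPM in the controls and 40.0, 36.0 and 36.2 CPM after IFNγ. Its 3 treated samples were close to each other, with a log2 fold change of 1.69 ± 0.21 (SE, n = 3 per group, edgeR adjusted p = 1.32e-07). Stat3 had a log2 fold change of 0.88 ± 0.41 and Batf2, a partner of IRF1, one of 1.90 ± 1.10 on 2 control counts and 5 treated counts, and neither passed (edgeR adjusted p = 0.791 and 0.898).

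Of the 9 tested feedback inhibitors of JAK-STAT signalling, 0 were called by edgeR or by DESeq2, and 2 had an unadjusted edgeR p below 0.05. Socs1, which blocks JAK kinase activity, measured 4.60, 9.93 and 6.77 CPM in controls and 4.55, 7.76 and 8.52 CPM in treated samples. The groups overlapped, and its log2 fold change was -0.14 ± 0.43 (edgeR adjusted p = 0.992). Usp18, the protease that removes ISG15 and dampens interferon receptors, had 0 counts in the controls and 3, 1 and 0 after IFNγ, too few to place it.

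Among MHC class I genes 6 of 8 tested members were higher, with a median log2 fold change of 3.21, or 2.81 with H2-T10, which had 0 control counts, at its bound. H2-D1, a classical class I heavy chain, measured 20.2, 17.9 and 29.8 CPM in the controls and 221, 215 and 213 CPM after IFNγ. The treated samples differed little among themselves and stood well clear of the controls (log2 fold change 3.24 ± 0.19, edgeR adjusted p = 3.01e-18). B2m, the light chain shared by all class I molecules, was already among the abundant transcripts at 985, 996 and 1067 CPM and reached 2810, 2716 and 2549 CPM. Its log2 fold change was 1.41 ± 0.16 (edgeR adjusted p = 2.04e-08), smaller than that of H2-D1 from a much higher start. The non-classical heavy chains H2-T22 and H2-M3 rose by 2.26 ± 0.19 and 3.19 ± 0.51 on the log2 scale (edgeR adjusted p = 8.31e-13 and 3.01e-05). Nlrc5, the transactivator of class I promoters, rose from 1 count in the 3 controls together to 27 in the treated samples, a ratio of 48.6 with a 95% counting interval of 8.0 to 1990. H2-K1 had 0, 0 and 1 counts in controls and 20, 12 and 0 after IFNγ, so its groups overlapped at 0 although it was called. H2-T23 measured 492 to 555 CPM in controls and 481 to 505 CPM in treated samples, with a log2 fold change of -0.06 ± 0.14 (edgeR adjusted p = 0.986). Class I genes are close copies of each other, and the split of reads between them is uncertain.

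The machinery that cuts and loads class I peptides rose with it, in 8 of 13 tested members. The immunoproteasome subunits Psmb8 and Psmb9 were close to 0 in the controls. Psmb9 measured 0.920, 0.397 and 1.35 CPM in the controls and 79.9, 77.1 and 70.3 CPM after IFNγ. Psmb8 measured 0.920, 1.19 and 0 CPM in the controls and 25.3, 25.5 and 27.7 CPM after IFNγ. In both genes the treated samples agreed closely, and the log2 fold changes were 6.27 ± 0.33 for Psmb9 and 5.13 ± 0.46 for Psmb8 (edgeR adjusted p = 1.34e-19 and 1.77e-11). Psmb10, the other inducible catalytic subunit, started from 55.2, 59.2 and 51.4 CPM and rose to 179, 206 and 175 CPM. Its log2 fold change of 1.76 ± 0.14 (edgeR adjusted p = 3.42e-13) was close to those of the proteasome activator subunits Psme1 (1.48 ± 0.16) and Psme2 (1.57 ± 0.12). Tap1, a chain of the peptide transporter, rose from 5 counts in the 3 controls to 62 in the treated samples, a log2 fold change of 4.32 ± 0.61 (edgeR adjusted p = 2.87e-06). Tapbp (tapasin), which bridges the transporter and class I chains, and Erap1, which trims peptides in the endoplasmic reticulum, rose by 1.91 ± 0.32 and 2.35 ± 0.29 on the log2 scale. Tap2, the partner of Tap1, had 4 control counts and 15 treated counts, a log2 fold change of 2.57 ± 0.90 that did not pass (edgeR adjusted p = 0.413). The general chaperone Canx (calnexin) had a log2 fold change of -0.23 ± 0.14 and did not pass either. Psmb9 (GRCm38 chromosome 17, 34181987 to 34187764, minus strand) and Tap1 (34187553 to 34197225, plus strand) overlap at their annotated starts, and the counting is not stated to use strand.

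**Figure D2:**
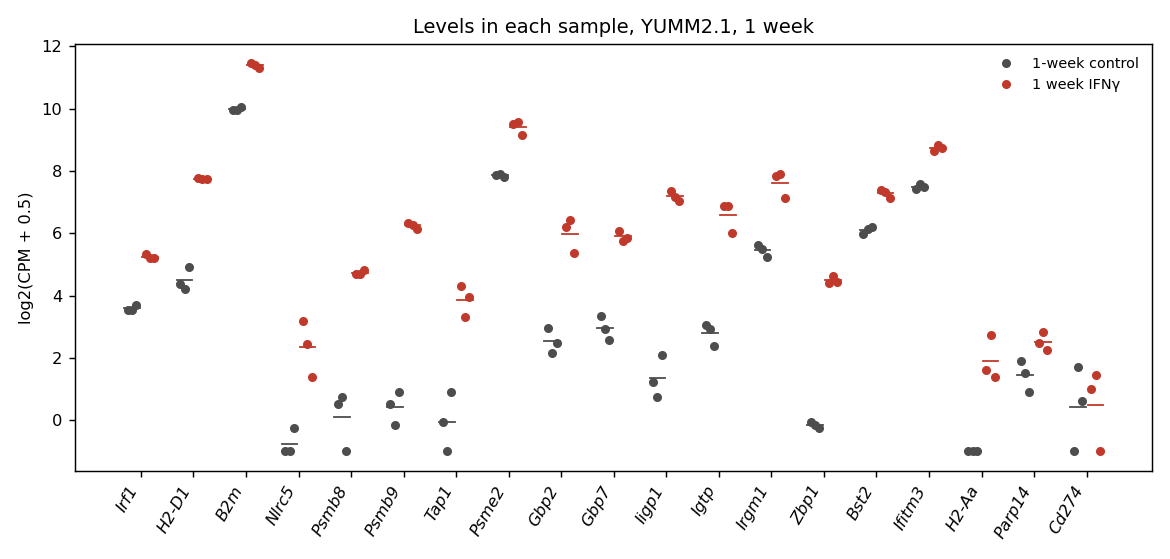
Level of 19 genes in each of the 6 samples, as log2(CPM + 0.5), with grey points for the 3 controls, red points for the 3 IFNγ samples and a line at each group's mean. The treated samples lie above every control from Irf1 to Parp14, although Parp14 did not pass the test, and the groups overlap for Cd274.

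MHC class II transcripts, which melanoma cells can express under IFNγ through the transactivator CIITA, appeared at low levels. H2-Aa, the alpha chain of I-A, had 0 counts in all 3 controls and 5, 11 and 1 counts after IFNγ, at least 10.2-fold higher against a floor of 3 counts over the group. H2-Eb1, the beta chain of I-E, had 0 counts in all 3 controls and 3, 12 and 1 counts after IFNγ, at least 9.59-fold higher. The chaperone chain H2-DMb1 had 5, 3 and 6 counts in controls and 14, 26 and 6 counts after IFNγ, and its CPM in the treated samples were all above the controls (log2 fold change 2.54 ± 0.50, edgeR adjusted p = 0.00168). These 3 of 4 tested members passed, and the median of the 4 with both 0-count genes at their bounds was 2.90. H2-Aa and H2-Eb1 had counts almost only in IFNγ groups and were tested because of those groups. The share and the median therefore do not measure how far the class II list as a whole responded. H2-DMa had 7 control counts and 21 treated counts and did not pass (edgeR adjusted p = 0.418). The genes Ciita, Cd74 and H2-Ab1 were too low to be tested, and each had 0 control counts, against 3, 5 and 4 treated counts. Without IFNγ sample 2, which held most of the H2-Aa and H2-Eb1 counts, the calls were lost for H2-Aa, H2-Eb1 and H2-DMb1 (edgeR adjusted p = 0.107, 0.385 and 0.102). H2-Eb1 was also not called without any 1 of the controls (edgeR adjusted p = 0.0709 to 0.110).

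The guanylate-binding proteins, GTPases that attack intracellular pathogens and their vacuoles, were higher in 6 of 9 tested members with a median log2 fold change of 3.04. Gbp2 measured 7.36, 3.97 and 5.08 CPM in the controls and 72.3, 85.9 and 40.5 CPM after IFNγ. The lowest treated sample, the shallow one, was still well above the highest control (log2 fold change 3.71 ± 0.20, edgeR adjusted p = 5.62e-19). Gbp7 rose from 9.66, 7.15 and 5.42 CPM to 67.3, 53.8 and 57.5 CPM, a log2 fold change of 3.04 ± 0.21 (edgeR adjusted p = 1.89e-15). Gbp4 and Gbp3 rose by 4.90 ± 0.40 and 3.58 ± 0.30, and Gbp9 and Gbp6 by 2.54 ± 0.38 and 2.99 ± 0.47. Gbp8 had 3 control counts and 15 treated counts, a ratio of 8.99 with a 95% counting interval of 2.54 to 48.5, and did not pass (edgeR adjusted p = 0.121). All 3 control counts were in control sample 2, and without it Gbp8 passed (edgeR adjusted p = 0.0165). The chromosome 5 members Gbp4, Gbp8 and Gbp9 overlap each other in the annotation, and the predicted gene Gm43302 overlaps Gbp6 and Gbp10, so their counts may be divided between neighbours. Gm43302 had 0 control counts and 71, 47 and 0 counts after IFNγ, and so it overlapped the controls at 0 in the shallow sample.

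The immunity-related GTPases are a mouse family of interferon-inducible p47 GTPases, listed here with Gvin1, a larger inducible GTPase of another family. They gave the largest median of the lists, 4.31 over 8 tested members or 4.10 with Gvin1 at its bound, and 7 of the 8 were higher. Of the 9 list members, Ifgga4 was not found under that symbol in the annotation and is not counted. Iigp1, an effector GTPase, measured 1.84, 1.19 and 3.72 CPM in the controls and 164, 142 and 132 CPM after IFNγ, and had the smallest p of all genes tested (log2 fold change 5.93 ± 0.26, edgeR adjusted p = 5.13e-22). Ifi47 rose from 1.38, 3.18 and 1.35 CPM to 50.6, 53.8 and 38.3 CPM (4.60 ± 0.30). Igtp measured 7.82, 7.15 and 4.74 CPM in the controls and 118, 118 and 63.9 CPM after IFNγ. Irgm1, a regulatory member that keeps effector GTPases off the cell's own membranes, measured 49.2, 44.5 and 37.6 CPM and rose to 227, 240 and 138 CPM. In Igtp and Irgm1 alike IFNγ sample 3 was the lowest of the treated samples and stood above every control, with log2 fold changes of 4.02 ± 0.24 and 2.26 ± 0.15 (edgeR adjusted p = 7.90e-18 and 1.87e-16). Irgm2 rose by 3.89 ± 0.33, and it overlaps Igtp on the same strand. Tgtp1 and Tgtp2 are near-identical neighbours whose reads cannot be assigned with certainty. Tgtp2 had 0, 22.6 and 20.6 CPM in controls 1, 2 and 3, where Tgtp1 had 30.8, 7.95 and 7.11 CPM, so the sample in which the first was listed at 0 held the highest control value of the second. After IFNγ, Tgtp2 measured 530, 420 and 405 CPM and Tgtp1 162, 337 and 72.4 CPM (log2 fold change 4.91 ± 0.59 and 3.80 ± 0.74). Gvin1 had 0 control counts and 27, 3 and 0 counts after IFNγ, and with that spread it did not pass (edgeR adjusted p = 0.898).

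Short promoter stretches of 6 raised genes are shown because they carry matches to the GAS or ISRE motif, whose binding was not measured here. The 3 GTPase promoters printed first were also chosen because they share an arrangement, which Tgtp1 and Gm12185 also have. The sequences are RefSeq's for GRCm38.p6, read 5′ to 3′ on the gene's strand, with capitals for matches to a GAS motif (TTCNNNGAA) or an ISRE motif (GAAANNGAAA, read on both strands) and 20 bases on each side. They lie at chr11:58199491-58199551 (plus strand) for Igtp, chr11:58214882-58214942 (plus) for Irgm2, chr11:49064253-49064313 (minus) for Tgtp2, chr3:142530210-142530312 (plus) for Gbp7, chr11:53769904-53769952 (plus) for Irf1 and chr2:122147528-122147577 (plus) for B2m.
Igtp: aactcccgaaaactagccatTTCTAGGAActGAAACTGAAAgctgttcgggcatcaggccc
Irgm2: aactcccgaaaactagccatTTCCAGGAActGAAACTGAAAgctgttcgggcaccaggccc
Tgtp2: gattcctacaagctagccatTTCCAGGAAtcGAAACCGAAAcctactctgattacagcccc
Gbp7: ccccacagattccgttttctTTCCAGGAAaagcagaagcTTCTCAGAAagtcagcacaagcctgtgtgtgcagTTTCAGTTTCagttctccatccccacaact
Irf1: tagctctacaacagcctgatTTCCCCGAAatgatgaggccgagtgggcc
B2m: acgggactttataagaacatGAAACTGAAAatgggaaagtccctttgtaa

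In Igtp, Irgm2 and Tgtp2 the GAS match began 45, 75 and 81 bases before the start site, and the ISRE match began 11 bases after the start of the GAS match in each, with 2 bases between the matches. The same spacing was found in Tgtp1 and Gm12185, whose GAS matches began 88 and 86 bases before the start site. Irgm1, another raised GTPase gene, held ISRE matches only. No match was found for the GTPase genes Iigp1 and Ifi47, which may have lacked a window. Gbp7 held 2 GAS matches and 1 ISRE match, Irf1 a GAS match only and B2m an ISRE match only. A window from 250 bases before to 50 bases after the start was found for 47 of the 63 raised genes, and 15 of the 47 held a GAS match, 22 an ISRE match and 28 either motif (59.6%). Of the 7276 tested genes with a window, 7.85% held a GAS match, 3.83% an ISRE match and 11.1% either. Of 32851 windows in the table, 8.30% held a GAS match and 3.44% an ISRE match. Of the 7 lowered genes 5 had a window, and 0 of the 5 held either motif. Fewer than 80% of the genes of each set had a window, so these shares are void as a check and stand as a description of the letters found.

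Antiviral effectors and sensors were raised in 9 of 25 tested members, with a median log2 fold change of 1.21. Zbp1, a sensor of Z-form nucleic acids that can trigger cell death, had 1 count in each control and 41, 44 and 10 counts after IFNγ. The treated levels of 20.7, 24.4 and 21.3 CPM hardly differed, and the ratio over the 3 control counts was 57.0 with a 95% counting interval of 18.9 to 281. The membrane proteins Bst2 (tetherin) and Ifitm3, which hold back virus release and entry, were abundant in the controls at 62.1 to 73.1 and 173 to 192 CPM. They rose to 141 to 168 CPM and 402 to 456 CPM, log2 fold changes of 1.21 ± 0.13 and 1.25 ± 0.14 (edgeR adjusted p = 4.01e-09 and 7.58e-09). Rtp4 rose from 3.05 to 6.44 CPM to 17 to 29.9 CPM (2.50 ± 0.27, edgeR adjusted p = 2.17e-09). Ifit3, Ube2l6, Ifi35, Ifit1 and Oasl2 were the other members called. Ifit1 kept its call in 3 and Oasl2 in 1 of the 6 fits that left out 1 sample, and Oasl2, with 0 counts in IFNγ sample 3, overlapped the controls and was not called by DESeq2. Ube2l6, the conjugating enzyme for ISG15, measured 42.5 and 42.7 CPM in IFNγ samples 1 and 2 but 8.52 CPM in sample 3, inside the control range of 6.43 to 13.5 CPM. The exonuclease Isg20 and the RNA sensor Ddx58 (RIG-I) had log2 fold changes of 1.10 ± 0.32 and 1.39 ± 0.41 and did not pass (edgeR adjusted p = 0.114 and 0.134).

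The interferon-induced poly-ADP-ribosyl polymerases (PARPs) all had a log2 fold change above 0, but none of the 6 tested members, Dtx3l included, passed in edgeR or DESeq2, and 5 had an unadjusted edgeR p below 0.05. Their median was 1.47. Parp14 measured 3.22, 2.38 and 1.35 CPM in the controls and 5.06, 6.65 and 4.26 CPM after IFNγ, on 4 to 7 and 2 to 12 counts per sample. The 3 treated samples lay above the 3 controls, and the log2 fold change was 1.29 ± 0.52 (edgeR adjusted p = 0.651). Parp9, the partner of Dtx3l, measured 1.38, 2.38 and 4.40 CPM in the controls and 8.09, 9.98 and 6.39 CPM after IFNγ (1.57 ± 0.42, edgeR adjusted p = 0.0599). Without control sample 3 Parp9 passed, with a log2 fold change of 2.12 (edgeR adjusted p = 0.0205). Parp12 had 6 control counts and 21 treated counts (2.47 ± 0.72, edgeR adjusted p = 0.128). Parp9 and Dtx3l overlap in the annotation, so their counts may not be separate.

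Of 5 tested checkpoint and lymphocyte ligands 0 passed in edgeR or DESeq2, and 0 had an unadjusted edgeR p below 0.05. Cd274, which encodes PD-L1, had 0, 7 and 3 counts in the controls and 3, 4 and 0 counts after IFNγ. The groups overlapped at means of 1.27 ± 1.41 and 1.25 ± 1.13 CPM (SD, n = 3), a level at which the sequencing could not show a modest difference (log2 fold change 0.30 ± 0.72, edgeR adjusted p = 0.986). When fresh IFNγ was added to cells after their week of exposure, Cd274 measured 22.4 ± 4.50 CPM at 2 h and 16.0 ± 1.56 CPM at 24 h. The other 11 ligands of the list, Cd80, Icam1 and Ido1 among them, were too low to be tested. Of 7 tested chemokine and cytokine genes 0 passed in edgeR or DESeq2 and 1 had an unadjusted edgeR p below 0.05. Cxcl10, a chemokine for T cells, had 14 control counts, 11 of them in sample 3, and 18 treated counts (1.16 ± 0.55, edgeR adjusted p = 0.797).

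**Figure D3:**
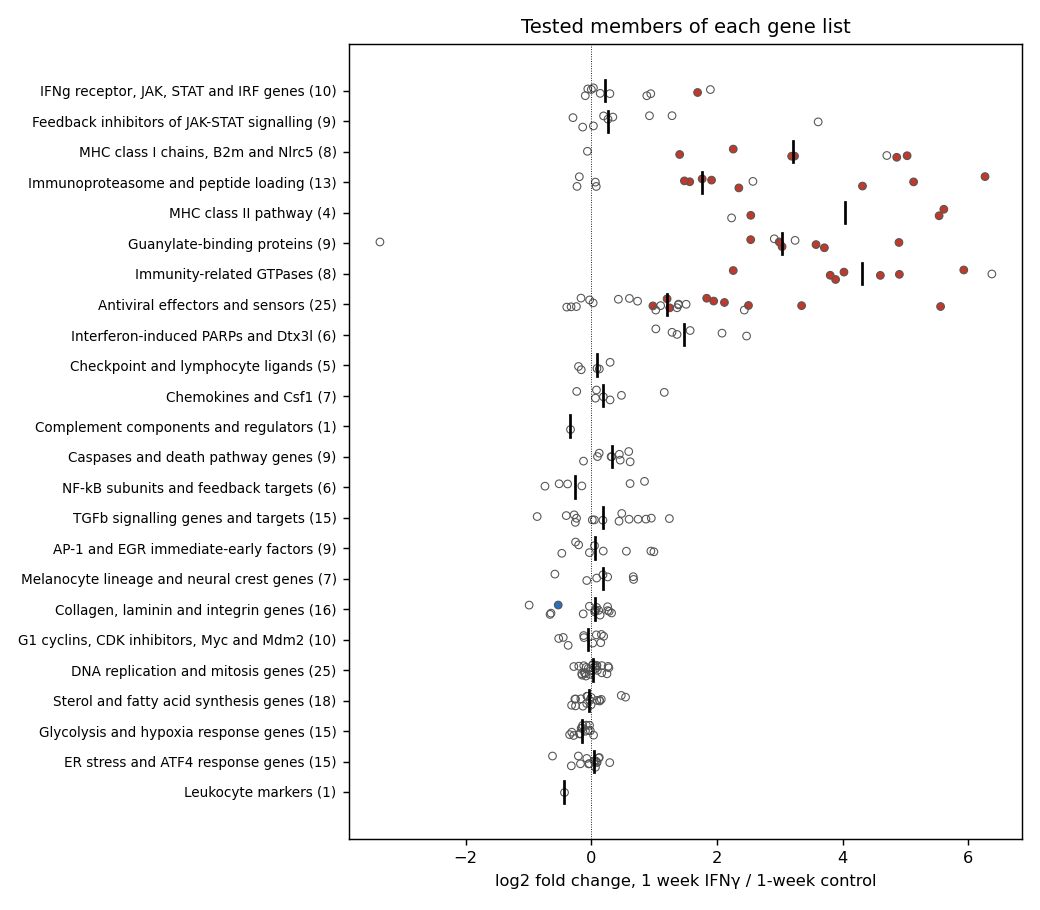
Log2 fold change (1 week IFNγ over 1-week control) of tested members of 24 gene lists, with 1 gene left out,, with the number tested in brackets, filled points for genes called higher (red) or lower (blue), open points for the rest and a bar at the list's median. The called genes lie in the signalling, MHC, peptide loading, GTPase and antiviral lists, with Sparc the single called gene elsewhere.

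The lists held 41 of the 63 raised genes and 1 of the 7 lowered genes, and 22 and 6 lay outside them. Genes were matched to the lists by symbol, so a member under another symbol counts as outside. Caspase and death pathway genes (9 tested), NF-kB genes (6), TGFb signalling genes (15), AP-1 and EGR factors (9) and melanocyte lineage genes (7) each had 0 list members called by edgeR or DESeq2. Casp12, which the caspase list does not hold, was called higher. The medians of the 5 lists were 0.32, -0.26, 0.18, 0.05 and 0.18, and 2, 1, 1, 0 and 2 members had an unadjusted edgeR p below 0.05. Of 25 DNA replication and mitosis genes 0 were called by edgeR or DESeq2 or had an unadjusted p below 0.05, and their median was 0.02 beside 0.0045 for all genes. Top2a, a topoisomerase of dividing cells, measured 358, 336 and 369 CPM in the controls and 377, 300 and 658 CPM after IFNγ, with the odd value in the shallow sample. Of 10 tested cell cycle entry genes edgeR called 0 (1 at an unadjusted p below 0.05) and DESeq2 called 1, Cdkn1a. Cdkn1a, the CDK inhibitor p21, measured 182, 194 and 169 CPM in the controls and 130, 138 and 102 CPM after IFNγ, with a log2 fold change of -0.52 ± 0.14 (edgeR adjusted p = 0.0572, DESeq2 adjusted p = 0.0384). Sterol and fatty acid synthesis genes (18 tested), glycolysis and hypoxia genes (15) and endoplasmic reticulum stress genes (15) had 0 called by edgeR or DESeq2, with 2, 3 and 0 at an unadjusted edgeR p below 0.05. Of 16 tested collagen, laminin and integrin genes 0 were higher and 1, Sparc, was lower, with a median of 0.07. The sterol and endoplasmic reticulum stress lists had medians of -0.04 and 0.04. In the glycolysis list 1 of 15 members had a log2 fold change above 0, beside 4852 of 9589 genes tested, and the median was -0.15, with no test of the list. Gapdh, its member with the smallest p, measured 2744 to 3178 CPM in controls and 2222 to 2696 CPM in treated samples (-0.28 ± 0.11, edgeR adjusted p = 0.607). Against the 0-week control the log2 fold change of Gapdh was 0.17. Aldoa, also of the glycolysis list, is missing from the 15, at 4679, 5358 and 5918 control counts and 4297, 4530 and 788 treated counts. Ddit3 is missing from the endoplasmic reticulum stress list, at 47, 62 and 86 control counts and 75, 59 and 21 treated counts. The symbols of Aldoa and Ddit3 were not matched to a tested gene, and their counts were not low.

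The 22 raised genes outside the lists included peptide and modifier genes and genes with provisional names. Insl6, a relaxin-family peptide gene, rose from 14.7, 9.54 and 16.2 CPM to 48.6, 69.9 and 46.8 CPM (2.06 ± 0.23, edgeR adjusted p = 4.52e-09). Nmi, an interferon-inducible protein that binds STAT and MYC factors, rose from 3.18 to 6.44 CPM to 24.4 to 30.9 CPM (2.46 ± 0.31, edgeR adjusted p = 2.37e-07). Gm4070 and F830016B08Rik, both provisional names, ranked among the 12 largest log2 fold changes of called genes with groups apart, at 5.89 ± 1.30 and 5.64 ± 0.64. The apolipoprotein L genes Apol9a, Apol9b and Apol10b were called on 4 control counts or fewer each. Ubd, the ubiquitin-like modifier FAT10, had 2 control counts and 24 treated counts, a ratio of 21.6 with a 95% counting interval of 5.36 to 188. Casp12, Pold4 and Rasal2 were called at log2 fold changes of 1.01, 0.47 and 1.79, and Pold4, a DNA polymerase subunit, was the smallest rise called. Rasal2 and Apol10b lost their calls in all 6 fits that left out 1 sample, Pold4 in 5 and Apol9b in 3, and DESeq2 did not call Apol10b. These genes outside the lists, other than Gm4070, F830016B08Rik and Apol9a, were chosen after their values were seen.

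The raised genes lay on 17 chromosomes. On GRCm38, 42 of the 63 lay in 12 runs in which each gene was within 1 megabase of the next raised gene, and 21 lay outside any run. Runs were not counted for the other tested genes, so this share has no background beside it. Chromosome 17 held 12 raised genes (19.0% of them, against 4.93% of tested genes), and 10 of these formed 1 run in the MHC region from 33915899 to 36042747, from Tapbp through H2-K1, H2-DMb1, Psmb9, Tap1, Psmb8, H2-Aa, H2-Eb1 and H2-D1 to H2-T22. Chromosome 11 held 10 (15.9%, against 7.80% of tested genes), in 2 runs of GTPase genes among others. These were Irgm1, Gm12185, Tgtp1, Tgtp2 and Ifi47 between 48861968 and 49096974, and Gm12250, Igtp and Irgm2 between 58187739 and 58222782. The guanylate-binding genes formed runs on chromosomes 3 and 5, and Gm4951, Gm4841 and F830016B08Rik formed a run with the GTPase gene Iigp1 on chromosome 18. Several runs hold related or overlapping genes, and others, such as Ubd with H2-M3, do not.

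The 7 lowered genes were single genes of different roles, and their changes were small. Hmox1, the heme oxygenase induced by oxidative stress, measured 137, 115 and 139 CPM in the controls and 89.5, 73.7 and 55.4 CPM after IFNγ, a log2 fold change of -0.77 ± 0.16 (edgeR adjusted p = 0.00200). Cnn2, an actin-binding calponin, measured 287, 289 and 290 CPM in the controls and 202, 188 and 207 CPM after IFNγ (-0.54 ± 0.12, edgeR adjusted p = 0.0118). H2afj, a histone H2A variant, fell from 196 to 209 CPM to 117 to 136 CPM, and Sparc, a secreted matrix glycoprotein, from 922 to 1016 CPM to 624 to 728 CPM. Their log2 fold changes were -0.67 ± 0.16 and -0.53 ± 0.13 (edgeR adjusted p = 0.0228 and 0.0390). The zinc finger gene Zfp607a fell by 0.96 ± 0.24 on the log2 scale (edgeR adjusted p = 0.0317). Ecd, a cell cycle regulator, measured 116, 124 and 155 CPM in the controls and 58.2, 58.2 and 89.4 CPM after IFNγ (-1.03 ± 0.25, edgeR adjusted p = 0.0253). Rpl31, a ribosomal protein gene, measured 5672, 1634 and 1896 CPM in the controls and 1359, 1407 and 1574 CPM after IFNγ (-1.09 ± 0.27, edgeR adjusted p = 0.0381). The first control stood far above the other 2, and without it the log2 fold change of Rpl31 was -0.28 (edgeR adjusted p = 1.00). Control sample 1 of week 3 had a value of the same kind, 4912 CPM, beside 1505 and 1528 CPM in its own group.

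Of the lowered genes only Hmox1 kept its call in each of the 6 fits that left out 1 of the 6 samples, as did 45 of the 63 raised genes. Hmox1 was not called with the compared groups fitted alone or with counts thinned to the smallest of the 6 totals. Measured against the 0-week control in place of the 1-week control, 1 of the 7, Cnn2, was still lower, and 56 of the 63 raised genes were still higher. Against that control Rpl31 and Ecd had log2 fold changes of 0.07 and 0.27. The control cells themselves differed between 0 and 1 week in 7 of 9589 genes (0.073%) in edgeR, 5 higher and 2 lower at week 1, and none of the 63 raised genes was among them. Ecd was, with 51.2 ± 21.8 CPM at 0 weeks and 132 ± 20.8 CPM at 1 week (SD, n = 3, log2 difference 1.30 ± 0.25, edgeR adjusted p = 0.0244). Hmox1 measured 84.4 ± 3.96 CPM in the 0-week control, 130 ± 13.2 in the 1-week control and 76.9 ± 4.22 in the 2-week control, so the week-1 controls were the highest of the 3. That comparison of controls depended strongly on the fit, with 131 genes called by DESeq2. Without 0-week control sample 1 there were 14 genes, and without any other sample 0 to 3, with 0 without 0-week control sample 2 or 1-week control sample 3. It shares the 1-week control samples with the main comparison.

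**Figure D4:**
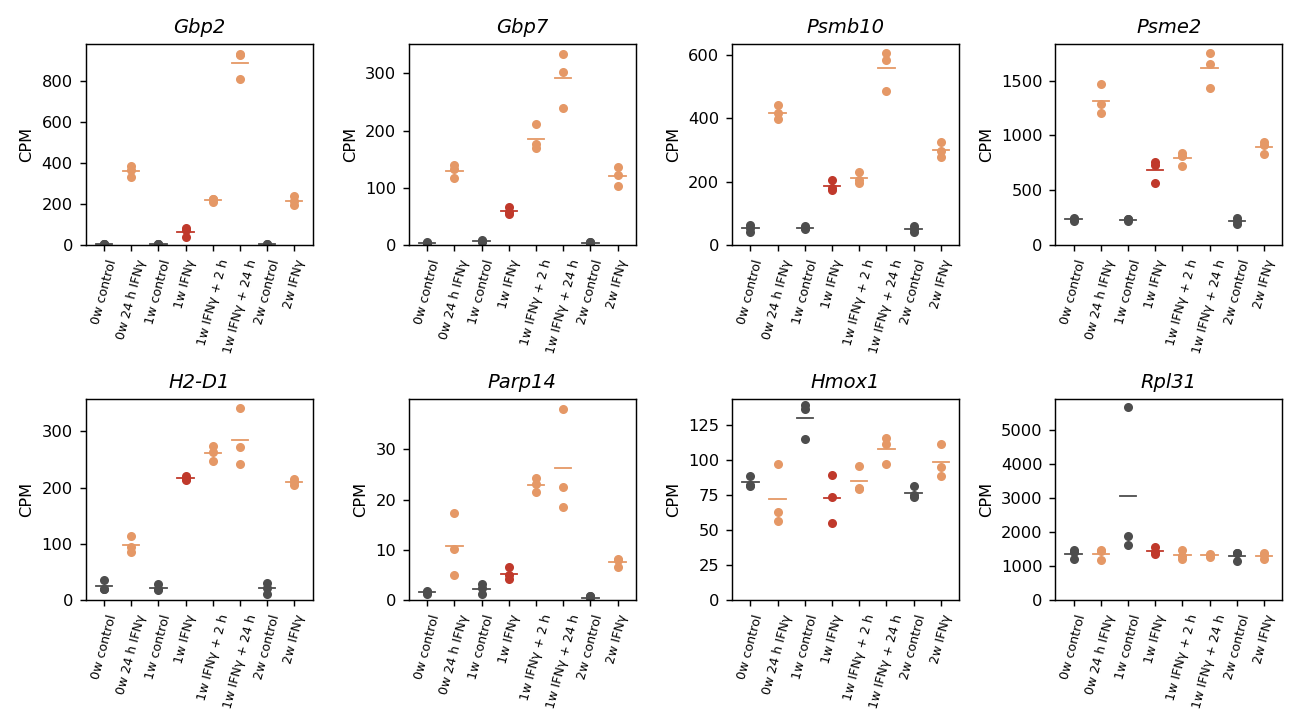
CPM of 8 genes in 8 YUMM2.1 groups, with a point for each of 3 samples and a line at the mean, grey for controls, red for 1 week of IFNγ and orange for other IFNγ groups, where "+ 2 h" and "+ 24 h" mark fresh IFNγ after the week. For Gbp2, Gbp7, Psmb10 and Psme2 the 1-week level lies between the controls and the naive 24 h level, and Rpl31 is high in 1 control sample of week 1.

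The week-long response was next set beside the response of naive cells to 24 h of IFNγ, which has its own 0-week control, to ask whether the first response was still at full size. Of the 63 raised genes 54 were also called higher in naive cells at 24 h, 44 had a smaller log2 fold change after 1 week than at 24 h, and the medians were 3.24 and 3.73. These genes were chosen by their rise at 1 week. The difference between the responses passed in 6 of 9589 genes (0.0626%, 345 at an unadjusted p below 0.05), and in all 6 the 1-week response was the smaller. Gbp2 measured 333, 368 and 387 CPM in naive cells at 24 h, against 72.3, 85.9 and 40.5 CPM after 1 week. No sample of one group reached the other, and the difference in log2 fold change was -2.38 ± 0.36 (edgeR adjusted p = 0.000293). Gbp7 differed by -1.78 ± 0.37 (edgeR adjusted p = 0.0331). Psmb10 measured 417 ± 22.2 CPM at 24 h and 186 ± 16.8 CPM after 1 week (-1.20 ± 0.20, edgeR adjusted p = 0.00259). Psme2 and Bst2 differed by -0.92 ± 0.17 and -0.95 ± 0.19 (edgeR adjusted p = 0.00514 and 0.0219). A fit of the compared groups alone called 0 such genes, and DESeq2 called 15, 12 of them smaller after 1 week. Leaving out 1 sample gave 2 genes without 0-week control sample 1 or naive 24 h sample 2, 3 without 0-week control sample 2 or 3 or 1-week IFNγ sample 2, and 4 to 6 otherwise.

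Not every gene followed that order. H2-D1 measured 98.5 ± 15.2 CPM in naive cells at 24 h and 216 ± 4.29 CPM after 1 week, with a difference in log2 fold change of 1.20 ± 0.29 that did not pass (edgeR adjusted p = 0.111). The class II chain H2-Aa had 0 counts in the 3 naive 24 h samples and 17 after 1 week, and H2-Eb1 had 1 and 16. H2-DMb1 had 10 counts in the 3 naive 24 h samples and 46 after 1 week, and its difference of 2.23 ± 0.93 did not pass (edgeR adjusted p = 1.00). Of the lists, MHC class II had 0 of 4 members called at 24 h and 3 after 1 week, with medians of 0.16 and 4.04, or 2.90 after 1 week with the genes at 0 control counts at their bounds. The difference between the responses passed for none of the 4 members. H2-Aa and H2-Eb1 had counts almost only in IFNγ groups of 1 week or more, and were tested because of those groups. Ciita, Cd74, H2-Ab1, H2-DMb2 and Ctss were not tested. The class II shares and medians therefore cannot compare 24 h with 1 week. The guanylate-binding proteins had 7 of 9 called at 24 h and 6 after 1 week, with medians of 5.33 and 3.04. MHC class I had medians of 2.60 and 3.21, and the difference between responses passed for none of its members.

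**Figure D5:**
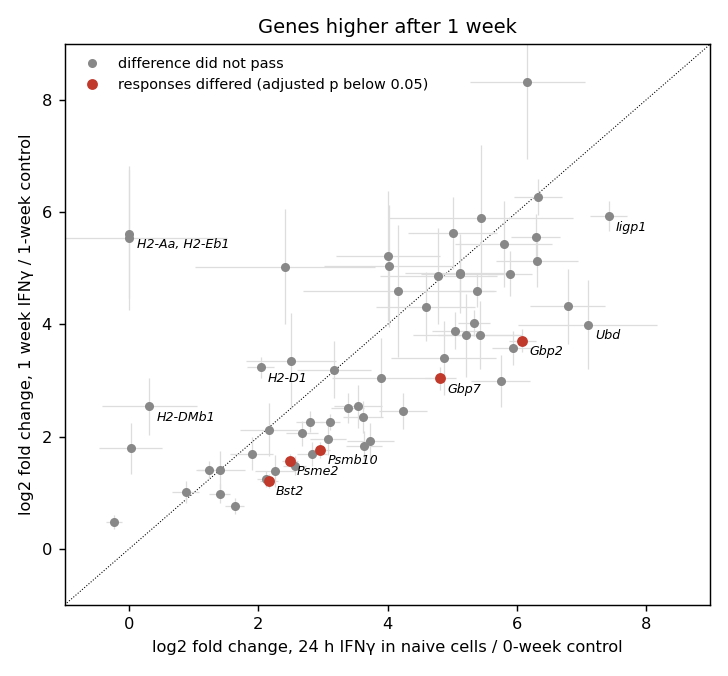
Log2 fold change after 1 week (vertical) against that of naive cells at 24 h (horizontal) for 62 of the 63 raised genes, with standard errors, a dotted line of equality and red points for 5 genes whose responses differed. All 5 red points lie below the line, while H2-Aa and H2-Eb1, with 0 and 1 counts at 24 h, lie at the left edge.

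Cells kept in IFNγ for 2 weeks were compared with their own 2-week control. Of the 63 raised genes 57 were called higher at 2 weeks and 50 had the smaller log2 fold change at 1 week, with medians of 3.24 and 3.96. The difference itself passed in 2 of 9589 genes (0.0209%, 467 at an unadjusted p below 0.05). Gbp2 measured 216 ± 22 CPM after 2 weeks against 66.2 ± 23.3 CPM after 1 week, and its responses differed by -1.96 ± 0.39 (edgeR adjusted p = 0.0477). Hmox1 had log2 fold changes of -0.77 at 1 week and 0.37 at 2 weeks, a difference of -1.15 ± 0.23 (edgeR adjusted p = 0.0477). Both calls were lost with library totals in place of TMM scaling and with the compared groups fitted alone. They both remained in 1 of 12 fits that left out 1 sample, the fit without control sample 2 of week 1, and the other 11 called 0 or 1. Of the 6 tested PARP and Dtx3l genes 4 were called at 2 weeks and 0 at 1 week, and the difference between the weeks passed for none of them. After a week of exposure the summed level of the 63 genes was 6852 to 7993 CPM, and with fresh IFNγ for 24 h it was 18080 to 22040 CPM. In naive cells at 24 h it was 9949 to 11340 CPM. The 63 genes were chosen by their rise at 1 week, which favours cells exposed for a week over naive cells. Abundant genes weigh most in the sum, such as B2m with a mean of 2691 CPM after 1 week. The difference between these sums was not tested.

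In CT26 cells, treated and collected in the same way at 1 week, 38 of the 63 genes were called higher, and 53 had a smaller log2 fold change than in YUMM2.1, with a median of 1.75. The 63 genes were chosen by their rise in YUMM2.1, which favours the smaller value in CT26. Over all genes of the joint fit, 52 were called higher in CT26 and 64 in YUMM2.1. The lines were fitted together over 10339 genes, and their 1-week responses differed in 6 (0.058%, 338 at an unadjusted p below 0.05). Without YUMM2.1 IFNγ sample 2 the count was 2, and without each of the other samples it was 4 to 7. H2-D1 showed the difference most clearly. In YUMM2.1 it rose from 21.4 ± 5.74 to 199 ± 11.8 CPM, and CT26 cells went from 199 ± 1.19 to 412 ± 48.2 CPM, so the treated YUMM2.1 cells stood at the level of untreated CT26 cells (difference in log2 fold change 2.14 ± 0.23, edgeR adjusted p = 1.94e-10). Ifi47 rose in YUMM2.1 from 1.87 ± 1.01 to 44.0 ± 9.54 CPM, and CT26 cells went from 17.5 ± 1.83 to 44.1 ± 2.39 CPM, with nearly equal means after treatment (3.20 ± 0.45, edgeR adjusted p = 3.30e-06). The YUMM2.1 controls held Irgm1 at 41.4 ± 5.80 CPM and the CT26 controls at 126.6 ± 5.30 CPM, and its responses differed by 1.12 ± 0.20 (edgeR adjusted p = 0.00154). H2-M3 started at 1.05 ± 0.78 and 25.4 ± 4.63 CPM and differed by 2.65 ± 0.56 (edgeR adjusted p = 0.0208). In these 4 genes the CT26 controls lay above the YUMM2.1 controls. Ifi27 rose by 0.74 on the log2 scale in YUMM2.1 and had a log2 fold change of -0.40 in CT26, a difference of 1.13 ± 0.23 (edgeR adjusted p = 0.00927). Serpinf1, which encodes the secreted protein PEDF, went the other way, at -0.38 in YUMM2.1 and 1.81 in CT26 (-2.19 ± 0.47, edgeR adjusted p = 0.0208). The reads of both lines were counted on the same mouse reference, and the lines come from different mouse strains, whose MHC genes differ in sequence. How far this moves the counts of H2-D1 and H2-M3 was not tested.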

How the data were processed

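RNA of YUMM2.1 and CT26 cells was profiled by 3′ digital gene expression, and the authors deposited 1 table of whole-number counts per gene for 90 samples, not normalized and with replicates kept apart. Per the labels' processing notes, Salmon 0.13.1 and the build mm10 were used, and the paper's methods name tximport for import. The annotation release, the use of molecular identifiers and the rounding are not given in the sources used here. In all, 1 YUMM2.1 and 4 CT26 samples were discarded by the study without being named there, and none was left out here.

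The 6 samples of the comparison were grouped by their labels. Genes passing edgeR's filterByExpr were scaled by TMM and fitted without covariates over the 15 YUMM2.1 groups (45 samples), which share the estimate of spread, and tested by the quasi-likelihood F test with Benjamini-Hochberg adjustment at 0.05 (edgeR 4.0.16, R 4.3.3). Differences between responses were interaction contrasts, and the contrast with CT26 came from a fit of all 90 samples. Log2 fold changes carry edgeR's prior count of 0.125, the SE is the log2 fold change divided by the square root of F, and CPM use TMM-scaled totals. Floors of 3 counts and 95% intervals cover counting error only. Of 53697 gene identifiers 53668 matched a symbol in the GENCODE annotation (GRCm38, the same assembly as mm10). The code was tested on simulated data.

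Genes named were the 12 largest and 12 lowest log2 fold changes among called genes with groups apart, up to 4 called and 2 uncalled members of each list, a few genes of interest (Parp14, Parp9, Parp12, Cd274, Irf1, B2m, Nlrc5, Socs1) and up to 5 genes per direction of each interaction, with list members and interaction genes taken by smallest p. Other list members and genes in the text were named after their values were seen. The values of 1 gene are not reported here, and it is counted in the totals. The comparison, the named genes and the gene lists were chosen with earlier results of these data known. Of the 25 lists, the complement list had 1 tested member (Cd59a, log2 fold change -0.33), the leukocyte list 1 (Cd68, -0.44) and the epithelial list 0. Alternatives were DESeq2 1.42.0, library totals, no filter (at least 1 count), the compared groups alone, a replicate block, leaving out each sample, a fold threshold, the 0-week control and counts thinned at random to the smallest of the 6 totals. Deviations of samples with the same replicate number from their group means correlated at -0.017, 0.088 and 0.093 over 6406 genes, so the numbers were not taken to pair the samples.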

Additional observations from a re-analysis of the deposited data

Results flagged for a closer look

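The 1-week response differed from that of naive cells at 24 h, by an interaction contrast in edgeR (Benjamini-Hochberg adjusted), for 6 genes, each with the smaller response at 1 week, of which 5 are given here: Gbp2 by -2.38, Gbp7 by -1.78, Psmb10 by -1.20, Bst2 by -0.95 and Psme2 by -0.92 (log2 fold change at 1 week less that at 24 h). By the same test the 1-week response differed from the 2-week response for Gbp2 by -1.96 and for Hmox1 by -1.15. It differed from the 1-week response of CT26 for Ifi47 by 3.20, H2-M3 by 2.65, H2-D1 by 2.14, Ifi27 by 1.13, Irgm1 by 1.12 and Serpinf1 by -2.19. Gbp2 is the single gene that differed from both the naive 24 h and the 2-week response. IFNγ sample 3, at 484092 counts, had the lowest Gbp2 level of the treated samples, 40.5 CPM beside 72.3 and 85.9 CPM, and the part of its depth in these differences was not tested. Hmox1 differed between weeks while its control moved, from 130 CPM at 1 week to 76.9 CPM at 2 weeks, and IFNγ-treated cells measured 72.9 and 98.8 CPM. With 3 samples per group, no group was large enough to look for single outlying samples.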

How the results depend on the processing

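The 70 changed genes became 75 in DESeq2 (65 shared), 73 with library totals (68 shared) and 56 with the compared groups alone. In the fit of the compared groups alone, 56 of the 70 genes were tested and 45 were called again, 42 higher and 3 lower. The 70 genes became 62 when the log2 fold change also had to reach 1 in size, 104 against the 0-week control (57 shared) and 54 to 71 without single samples. They became 121 with no filter, 39 of them lower, and 34 when the 6 samples were thinned to 484092 counts, where 33 of the 63 raised and 0 of the 7 lowered genes were called. Of 86 named genes 40 passed, 25 after thinning and 31 to 36 without single samples. Counts of calls in the other comparisons moved more. The 6 genes that differed from naive 24 h became 15 in DESeq2, 10 with library totals, 46 with no filter, 0 with the compared groups alone and 2 to 6 without single samples. The 2 that differed from 2 weeks became 0 with library totals, 38 with no filter, 0 with the compared groups alone and 0 to 2 without single samples. The 6 that differed from CT26 became 11 in DESeq2, 31 with no filter and 2 to 7 without single samples. The 7 that differed between the 1-week and 0-week controls became 3 at a log2 difference of at least 1 in size, 131 in DESeq2, 53 with library totals, 108 with no filter, 82 with the compared groups alone and 0 to 14 without single samples. The causes were not tested.

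With the replicate number as a replicate block, 72 genes changed at 1 week (68 shared) and 15 differed between the controls. The other counts stayed within 1.5 times.

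Signs turned for 15 named genes. With thinned counts the log2 fold change for Cd274 was -0.0311, and it was -3.11 for Cxcl10, -0.18 for Lif, 0.017 for Klf6, 0.016 for Phgdh and 0.95 for Socs1. Against the 0-week control it was 0.071 for Rpl31, 0.27 for Ecd, -0.054 for Cd274, 0.073 for Klf6, -0.034 for Mc1r, 0.12 for Myc, 0.17 for Gapdh, 0.056 for Phgdh, 0.19 for Socs1 and 0.10 for Serpinf1. Without single samples it ranged from -0.36 to 0.032 for Lgals9, -0.17 to 1.37 for Cd274, -0.87 to 0.99 for Lif, -0.048 to 0.51 for Top2a, -0.73 to 0.040 for Cd68 and -0.35 to 0.17 for Socs1. Of these genes only Rpl31 and Ecd were called. IFNγ sample 3 limits the depth, since 1 count there is about 2 CPM.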
